A study of Homo sapiens with 29 samples.

Results

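RNA from micronucleated cells with ruptured micronuclei (rupture+) was compared with RNA from micronucleated cells whose micronuclei were all intact (rupture-). The comparison used 6 of the 22 libraries of the series and asked which genes differ between these classes. The 6 are the 3 rupture+ and 3 rupture- columns of the table for this comparison, 1 of each from each of 3 experiments, and they cover 9461 genes. The cells were hTERT RPE-1 (RPE1), a telomerase-immortalised, near-diploid line from human retinal pigment epithelium, here in a derivative that carries H2B-emiRFP703, which marks chromatin, and NLS-3xDendra2, a nuclear protein that is lost from ruptured micronuclei and turns from green to red under UV light. Cells of all 6 libraries received BAY1217389 (Mps1i, 100 nM for 24 h), an inhibitor of the spindle assembly checkpoint kinase Mps1. The sample labels add 20 h of pre-treatment with the Cdk1 inhibitor RO-3306 at 10 µM, whereas the methods of the study synchronised these cells with the Cdk4/6 inhibitor PD-0332991 and added RO-3306 shortly before imaging, so which inhibitor preceded Mps1i cannot be settled here. Cells were classified by image analysis while alive, photoconverted and sorted, with a 200 ms pulse for rupture+ and an 800 ms pulse for rupture- in every experiment. Pulse length and rupture therefore cannot be told apart within these libraries. Rupture+ cells hold at least 1 ruptured micronucleus and may hold intact ones too, the classes come from an image classifier that makes errors, and no library of synchronised cells without micronuclei or without Mps1i was part of the comparison. The study counted chromosomes by FISH and found cells with ruptured micronuclei more often aneuploid for most chromosomes counted. It also found that cells with several micronuclei were more likely to hold a ruptured one. The classes thus differ in more than rupture, and the part of these differences in the results was not tested. Both groups of an experiment were sorted from 1 imaged well, and the experiments are the replicates.

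A micronucleus forms when a missegregated chromosome or a fragment of one gathers its own nuclear envelope outside the main nucleus. That envelope is fragile, and its rupture exposes the chromatin to the cytosol, lets nuclear proteins leak out and stops replication and transcription of the enclosed DNA. Exposed chromatin has been proposed to start an interferon response through the DNA sensor cGAS and STING, and RPE1 has low levels of cGAS. The study cites evidence that cGAS on ruptured micronuclei does not activate STING and that no response comes in the first cell cycle. It also cites a response through RIG-I in RPE1 without cGAS, and does not expect the low cGAS to change the outcome. Immediate early genes such as EGR1, FOS and ATF3 are switched on within minutes to hours of growth factor, stress or damage signals without new protein synthesis, and most encode transcription factors.

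Total estimated counts per library lay between 63268807 and 79829442. No gene of the table has fewer than 700 counts in its second-highest library, so genes below that level could not be measured. The libraries of 1 group alone could meet that floor. Among the called genes ATF3 and CTH met it only through rupture+ and NOMO1 only through rupture- libraries, so they were tested only because 1 group was high. Levels are given as CPM, counts scaled to library size after TMM normalization. Of the variance over the 500 most variable genes 44.1% lay on the first principal component, and of that component's variance 39.8% was between rupture+ and rupture- and 31.5% between experiments. The rupture+ library of experiment 3 stood apart there, with a score of -10.7 against -0.127 to 5.03 for the other 5. The second component held 22.2%, of which 3.23% was between the conditions and 70.1% between experiments. The pigment epithelium markers MITF and OTX2 were the only 2 measured of a list of 12, with MITF at 84.6 to 120 CPM and OTX2 at 8.12 to 10.9 CPM, and the other 10, RPE65 and TYR among them, had no measured value. None of the blood cell or endothelial markers listed had one either. The epithelial keratin KRT18 lay between 1182 and 1305 CPM and the intermediate filament gene VIM between 2906 and 3457 CPM. Genes with GC-poor transcripts had on the whole higher values in rupture+ cells, with a Spearman correlation of -0.675 between log2 fold change and GC content across 9237 genes, which are not independent replicates. That correlation was -0.339, -0.00503 and -0.775 in experiments 1, 2 and 3. Values with offsets for the dependence of each library on transcript length and GC content are therefore given beside the results, and the part of GC content in them was not tested further. In bulk RNA a change in the share of cells that express a gene and a change in RNA per cell cannot be told apart.

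Few genes passed edgeR's threshold between rupture+ and rupture- cells, while the study reports a large number for this comparison from a likelihood ratio test. Those called higher by edgeR included the immediate early genes EGR1, ATF3 and FOS, the NF-kB target TNFAIP3 and the EMT regulator SNAI2. Of the 9461 genes, 11 were higher (0.116% of those tested) and 4 lower (0.0423%) in edgeR's quasi-likelihood test with the experiment as a block and an adjusted p under 0.05. All 15 exceeded 1.5-fold, and 900 genes had an unadjusted p under 0.05. The higher genes were ATF3, EGR1, CREB5, CTH, FILIP1L, TNFAIP3, SNAI2, FOS, PPP1R3C, BHLHE40 and TSC22D1, with log2 fold changes from 0.59 to 1.13. DESeq2's likelihood ratio test with the same block called 49 genes higher (0.518%) and 23 lower (0.243%), the 11 among them. Without the block edgeR called 3 genes, EGR1, CREB5 and SNAI2, and with 1 single library left out besides it called between 0 and 6, with 338 to 1181 at an unadjusted p under 0.05. The calls also rest on the second experiment: without it, 5 of the 15 passed (EGR1, ATF3, FILIP1L, TNFAIP3 and NOMO1), whereas all 15 passed without the first (77 genes called) or without the third (27). With the length and GC offsets all 11 higher genes passed and edgeR called 43 higher and 6 lower in all.

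**Figure D1:**
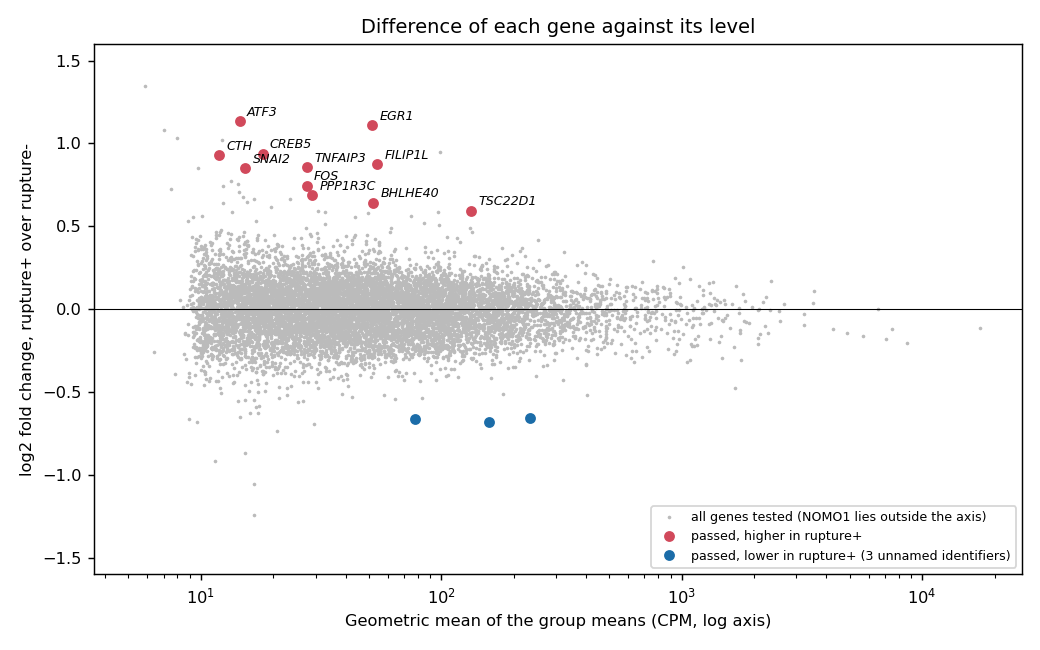
Log2 fold change (rupture+ over rupture-, vertical axis) of each gene against the geometric mean of its group means in CPM (horizontal log axis), with genes past an adjusted p of 0.05 in edgeR's test coloured. The 11 higher genes lie between 0.59 and 1.13 at low to middle levels, the 3 lower points are identifiers without a name, and NOMO1 at -8.67 lies outside the plotted range.

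EGR1 (chromosome 5, 138465479 to 138469303, plus strand, in the GENCODE annotation of GRCh38), a zinc finger transcription factor of the immediate early class, had the smallest adjusted p of the higher genes. It lay at 61.5, 79.8 and 87.1 CPM in the rupture+ libraries of experiments 1, 2 and 3 and at 32.1, 34.7 and 38.3 CPM in the rupture- libraries. The lowest rupture+ library was thus well above the highest rupture- one. Its level rose from 35.02 ± 3.11 CPM in rupture- cells to 76.1 ± 13.2 CPM in rupture+ cells (n = 3 each, ± SD). That is 1.11 on the log2 scale (standard error 0.101), at an adjusted p of 0.00298 in edgeR. ATF3 (chromosome 1, 212565334 to 212620777, plus strand), a stress-induced bZIP factor of the ATF and CREB family, stood at 13.5, 22.5 and 29.6 CPM in the rupture+ libraries of experiments 1, 2 and 3 and at 7.46, 10.99 and 10.4 CPM in the rupture- libraries. Its rupture+ libraries were further apart than its rupture- ones, and the groups did not overlap. The log2 fold change was 1.13 (standard error 0.149, edgeR adjusted p = 0.0343), the largest among the higher genes. All rupture- libraries of ATF3 lay under the floor of 700 counts, so it was measured only through the rupture+ group, and its test is not free of that selection.

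FOS (chromosome 14, 75278826 to 75282230, plus strand), which pairs with JUN proteins to form AP-1, was measured at 22.3, 41.6 and 43.7 CPM in the rupture+ libraries of experiments 1, 2 and 3 and at 15.04, 21.7 and 26.7 CPM in the rupture- libraries. Both groups were lowest in experiment 1, so the groups overlapped while each rupture+ library exceeded the rupture- library of its own experiment. Its log2 fold change was 0.74 (standard error 0.1098, edgeR adjusted p = 0.0352). BHLHE40 (chromosome 3, 4979437 to 4985323, plus strand), a repressor of the basic helix-loop-helix family that responds to many stresses and takes part in the circadian clock, showed the same shape, at 48.01, 66.5 and 80.5 CPM with rupture and 30.3, 42.6 and 52.5 CPM without. Levels in both groups differed between experiments in the same order, and the 3 differences within an experiment were close to each other, with log2 ratios of 0.662, 0.644 and 0.617. BHLHE40 had a log2 fold change of 0.64 (edgeR adjusted p = 0.0352). NR4A2, an orphan nuclear receptor that is also immediate early, missed the threshold at 13.98, 20.1 and 18.6 CPM with rupture and 9.87, 8.096 and 7.81 CPM without. Here the groups did not overlap, and the value was 1.02 (standard error 0.174, edgeR adjusted p = 0.0801). DESeq2 called NR4A2 (adjusted p = 3.54e-05), and edgeR did so with the GC offsets (adjusted p = 0.0212). The rupture- libraries of NR4A2 alone would not have met the count floor, so it was measured because rupture+ libraries were high. Its tests and the lack of overlap are not free of that selection.

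**Figure D2:**
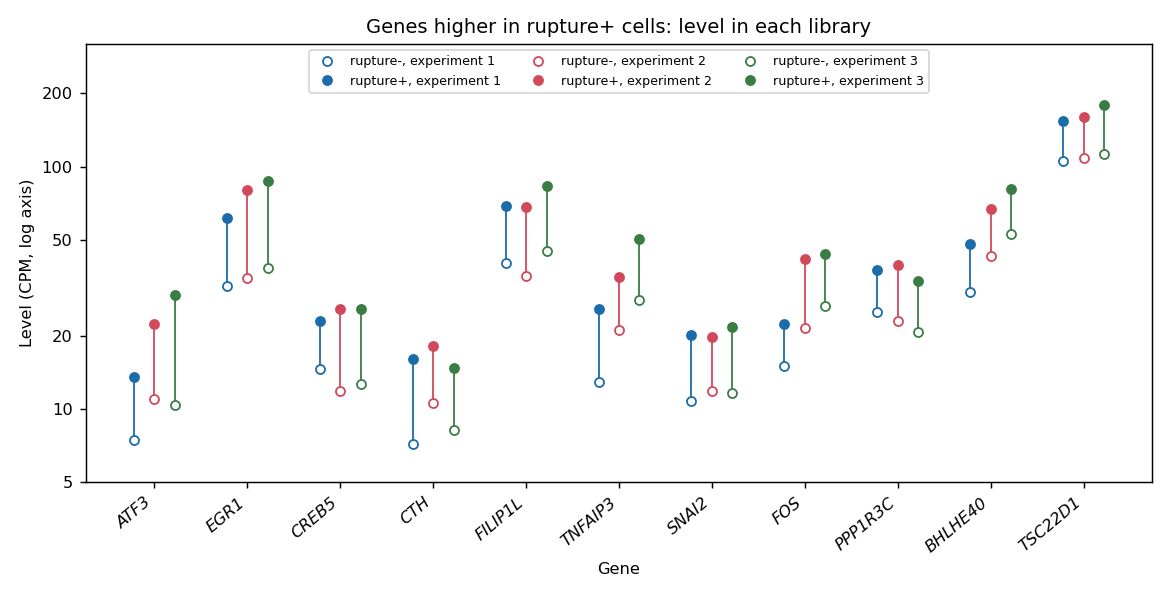
Level of the 11 higher genes in each library (CPM, log axis), with open circles for rupture-, filled circles for rupture+ and a line joining the 2 libraries of an experiment. Every line rises from open to filled, and for TNFAIP3, FOS and BHLHE40 the lowest filled circle lies below the highest open one.

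The bases before a start of 4 of the higher genes are shown as examples of the motifs searched. These are the sites of serum response factor and NF-kB and the TATA box, a general core promoter element. The bases come from RefSeq on GRCh38.p14, end 1 base before a start annotated there, run 5′ to 3′ on the gene's strand and carry the motif in capitals. The FILIP1L window is 1 of 2 for that gene and precedes a start inside the gene's annotated span. The other FILIP1L window held no CArG box. For EGR1 (chr5:138465229-138465478, plus strand) and FILIP1L (chr3:99876174-99876423, minus strand) the capitals mark CArG boxes, the motif of serum response factor. In TNFAIP3 (chr6:137867009-137867258, plus strand) they mark NF-kB sites and in FOS (chr14:75278578-75278827, plus strand) the TATA box.
EGR1: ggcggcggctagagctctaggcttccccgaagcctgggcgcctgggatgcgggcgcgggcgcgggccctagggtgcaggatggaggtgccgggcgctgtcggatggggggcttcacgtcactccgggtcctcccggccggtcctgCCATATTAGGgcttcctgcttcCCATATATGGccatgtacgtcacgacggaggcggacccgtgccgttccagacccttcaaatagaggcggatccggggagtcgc
FILIP1L: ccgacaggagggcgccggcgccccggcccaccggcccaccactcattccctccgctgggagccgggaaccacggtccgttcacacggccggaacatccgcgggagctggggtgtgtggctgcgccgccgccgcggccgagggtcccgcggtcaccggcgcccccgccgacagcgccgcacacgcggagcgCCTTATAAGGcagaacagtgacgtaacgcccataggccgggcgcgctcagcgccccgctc
TNFAIP3: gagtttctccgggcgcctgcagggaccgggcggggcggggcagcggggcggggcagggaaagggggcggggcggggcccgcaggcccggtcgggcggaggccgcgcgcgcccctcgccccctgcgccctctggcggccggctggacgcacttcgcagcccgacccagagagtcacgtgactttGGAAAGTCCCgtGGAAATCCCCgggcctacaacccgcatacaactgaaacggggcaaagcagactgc
FOS: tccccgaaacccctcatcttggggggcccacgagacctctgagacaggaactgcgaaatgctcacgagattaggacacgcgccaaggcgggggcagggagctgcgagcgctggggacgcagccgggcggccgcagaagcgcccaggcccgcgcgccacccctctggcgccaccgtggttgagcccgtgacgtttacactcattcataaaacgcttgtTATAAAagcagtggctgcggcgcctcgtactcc

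Over all windows of 250 bases before to 50 bases after a start, on both strands, a CArG box stood in 2 of the 10 higher genes with a window and in 1.61% of the 7625 tested genes that have one. The TATA box (TATAAA) stood in 4 of the 10, against 7.57% of tested genes. An NF-kB site stood in 2 against 8.84%, and an AP-1 site (TGANTCA) in 2 against 6.56%. A full CRE (TGACGTCA), which does not contain the AP-1 letters, was in 0, against 4.18%. Among the 41 genes with a window that DESeq2 called higher, 5 held a CRE, 9 an AP-1 site, 10 a TATA box, 3 (7.32%) a CArG box and 6 (14.6%) an NF-kB site. Genes with several starts have several windows and so more chances of a match, and such matches are a description of letters and not of binding.

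TNFAIP3 (chromosome 6, 137867214 to 137883314, plus strand) encodes A20, a ubiquitin-editing enzyme that NF-kB induces and that shuts NF-kB signalling down. It stood at 25.96, 35.1 and 50.4 CPM in the rupture+ libraries of experiments 1, 2 and 3 and at 12.98, 21.2 and 28.2 CPM in the rupture- libraries. Both groups were lowest in experiment 1 and highest in experiment 3, so they overlapped, and the rupture+ library was the higher one in each experiment. The log2 fold change was 0.85 (standard error 0.105, edgeR adjusted p = 0.0224). CXCL8, which encodes the chemokine interleukin 8 and is a further NF-kB target, ranged from 59.2 to 249 CPM with rupture and from 36.8 to 88.4 CPM without. It was higher in each experiment and most so in the third, where the log2 ratio was 1.49. Its adjusted p was 0.0555 in edgeR at a log2 fold change of 0.95, and 2.85e-07 in DESeq2.

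Of the 11 NF-kB targets measured among 26 listed, 1 passed edgeR, TNFAIP3, where edgeR called 0.116% of all genes tested higher. Of these targets 8 were higher in all 3 experiments, as were 19.2% of all genes tested. The list's median log2 fold change was 0.29, against -0.00193 over all genes, with medians of 0.28, 0.40 and 0.14 in experiments 1, 2 and 3. NFKBIZ, an inducible co-activator, and NFKB2, a subunit of NF-kB, had log2 fold changes of 0.36 and 0.26 with an adjusted p of 0.492 and 0.493 in edgeR. With the GC offsets edgeR called 4 of the list: TNFAIP3, CXCL8, NFKB2 and, named after its values were seen, the inhibitor gene NFKBIE. Over all genes that fit called 43 of 9237 higher.

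CREB5 (chromosome 7, 28299321 to 28825894, plus strand), a CREB-family bZIP factor, lay at 23.2, 25.9 and 25.9 CPM in the rupture+ libraries of experiments 1, 2 and 3 and at 14.7, 11.9 and 12.6 CPM in the rupture- libraries. Groups did not overlap, and the log2 fold change was 0.94 (standard error 0.134, edgeR adjusted p = 0.0352). SNAI2 (chromosome 8, 48917598 to 48921740, minus strand), a zinc finger repressor that drives the epithelial to mesenchymal transition (EMT), was at 20.2, 19.8 and 21.8 CPM with rupture and 10.8, 11.8 and 11.6 CPM without. The 3 libraries of each group lay close together and far from the other group, which gave a log2 fold change of 0.85 (standard error 0.122, edgeR adjusted p = 0.0352). SNAI2 was the 1 member called of 39 EMT and matrix genes measured, whose median was -0.00224, where edgeR called 0.116% of all genes higher. DPYSL3, a cytoskeletal regulator on the same list, ranged from 32.3 to 36.5 CPM with rupture and from 44.03 to 53.003 CPM without. Although the groups of DPYSL3 did not overlap, it missed edgeR's threshold (log2 fold change -0.42, standard error 0.103, adjusted p = 0.328) and passed DESeq2's (adjusted p = 0.0347).

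TSC22D1 (chromosome 13, 44432143 to 44577147, minus strand), a leucine zipper protein first found as a TGF-beta-stimulated gene, was at 154, 161 and 179 CPM with rupture and 105, 108 and 112 CPM without. It had the smallest of their fold changes (0.59, standard error 0.0868, edgeR adjusted p = 0.0352), and its groups did not overlap. FILIP1L (chromosome 3, 99828811 to 100114513, minus strand), a filamin-interacting protein that restrains cell migration, was at 68.5, 68.1 and 83.4 CPM with rupture and 39.98, 35.4 and 44.7 CPM without. Its groups did not overlap, and the log2 fold change of FILIP1L was 0.87 (standard error 0.0952, edgeR adjusted p = 0.0104). PPP1R3C (chromosome 10, 91628442 to 91633071, minus strand), which targets protein phosphatase 1 to glycogen, was at 37.5, 39.4 and 33.9 CPM with rupture and 25.2, 23.01 and 20.7 CPM without. Again no rupture+ library fell to the level of a rupture- one, and the log2 fold change was 0.69 (standard error 0.101, edgeR adjusted p = 0.0352). Over the whole table, 906 genes (9.58%) were higher and 634 (6.7%) lower without any overlap between the groups, and 8 of the 11 called genes were among the former.

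CTH (chromosome 1, 70411218 to 70439851, plus strand), cystathionine gamma-lyase, makes cysteine from cystathionine and is a target of the transcription factor ATF4 in the integrated stress response. It stood at 16.1, 18.2 and 14.8 CPM in the rupture+ libraries of experiments 1, 2 and 3 and at 7.19, 10.6 and 8.23 CPM in the rupture- libraries. The lowest rupture+ library was above the highest rupture- one. As for ATF3, all rupture- libraries of CTH lay under the floor of 700 counts, so it was measured only through the rupture+ group. CTH was the 1 gene called of 37 measured on the stress response list, with a log2 fold change of 0.93 (standard error 0.1400, edgeR adjusted p = 0.0353). DDIT3, which encodes the stress factor CHOP, had a value of 0.59 (edgeR adjusted p = 0.146, DESeq2 0.00296), at 33.6, 36.7 and 43.5 CPM with rupture and 26.8, 23.6 and 24.8 CPM without. No rupture+ library was as low as a rupture- one. DDIT4, an inhibitor of mTORC1, and ASNS, asparagine synthetase, had values of 0.44 and 0.31 with adjusted p of 0.357 and 0.492. The list had a median of 0.0817, and 15 of its genes were higher in all 3 experiments while 2 were lower, beside 19.2% and 15.9% of all genes. Of all genes tested, edgeR called 0.116% higher.

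The immediate early list counted 28 measured genes of 37, and edgeR called 4 higher (EGR1, ATF3, BHLHE40 and FOS) and 0 lower. DESeq2 called 9 of the list, adding NR4A2 and, named after their values were seen, CSRNP1, TIPARP, KLF10 and MAFF. Of the list, 18 were higher in all 3 experiments and 2 lower, beside 19.2% and 15.9% of all genes. Its median was 0.23, or 0.25 with the GC offsets. JUN, the partner of FOS, and MYC, named after their values were seen, had values of 0.30 and 0.24 with an adjusted p of 0.492 and 0.499 in edgeR. SRF, which encodes serum response factor and was likewise chosen later, was at -0.23 (edgeR adjusted p = 0.549).

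Of the 4 lower calls, NOMO1 has a near-identical copy, NOMO2, so the division of reads between them is uncertain. NOMO1, part of a membrane protein complex of the endoplasmic reticulum, was at 0.04397, 0.0297 and 0.178 CPM with rupture and 0.127, 107 and 21.7 CPM without. The rupture- library of experiment 1 was as low as the rupture+ ones, so the call rests on the rupture- libraries of experiments 2 and 3, and the fitted log2 value of -8.67 depends on the prior count. DESeq2 did not call NOMO1 (adjusted p = 0.382). NOMO2 itself was at 254, 271 and 226 CPM with rupture and 218, 247 and 273 CPM without (log2 fold change 0.0276, edgeR adjusted p = 0.9302). With the counts of NOMO1 and NOMO2 summed, the 6 libraries lay between 226 and 354 CPM and the log2 fold change was -0.18 (standard error 0.121, edgeR adjusted p = 0.583). The other 3 lower calls are identifiers that neither the gene annotation nor the name tables used here pair with a symbol. ENSG00000255823 was at 107, 117 and 151 CPM with rupture and 167, 219 and 214 CPM without, a log2 fold change of -0.68 (edgeR adjusted p = 0.0352), and ENSG00000269028 had a value of -0.66. For both, each rupture+ library was below the rupture- library of its experiment. The third, ENSG00000256045, had a value of -0.66. In experiments 1, 2 and 3 the log2 ratios were -0.63, -0.90 and -0.51 for ENSG00000255823 and -0.54, -0.91 and -0.53 for ENSG00000269028. Those of ENSG00000256045 were -0.64, -0.84 and -0.51. Whether the 3 identifiers draw on the same reads was not tested, so they cannot be counted as separate changes.

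None of the interferon-stimulated genes measured passed in edgeR or DESeq2. Of 51 interferon-stimulated genes listed 20 were measured, 3 of these had an unadjusted p under 0.05 in edgeR, and their median log2 fold change was -0.0533, or 0.0229 with the GC offsets. GBP1 and SP100, at 0.21 and 0.20 (adjusted p = 0.517 for both in edgeR), lay above 0 in all 3 experiments, and IFITM3 and IFITM2 had values of -0.22 and -0.21. Of the 15 measured genes for sensing DNA and RNA in the cytosol 0 passed edgeR or DESeq2 and 2 had an unadjusted p under 0.05, with the larger value of 0.34 for TBK1, the kinase downstream of STING (standard error 0.1001, edgeR adjusted p = 0.424) and a median of -0.0692, or 0.0239 with the GC offsets. The 29 genes of the nuclear lamina, inner nuclear membrane and ESCRT-III, which build and reseal the envelope, held 0 calls in edgeR or DESeq2 and 2 genes with an unadjusted p under 0.05. LMNB2, a B-type lamin, had the smallest p of them at 95.6, 106 and 73.3 CPM with rupture and 116, 125 and 118 CPM without (log2 fold change -0.41, adjusted p = 0.3599 in edgeR), and CHMP1B, an ESCRT-III subunit, had a value of 0.32 (adjusted p = 0.406). CHMP1B passed in the fit over all 22 libraries with the pulse as a term (0.36, edgeR adjusted p = 0.0297).

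The 51 G2 and mitosis genes had 0 calls in edgeR (14 at an unadjusted p under 0.05), and 33 of them were higher in all 3 experiments (19.2% of all genes were). Their median log2 fold change was 0.19, with medians of 0.11, 0.15 and 0.27 in experiments 1, 2 and 3, and 0.10 with the GC offsets. Their transcripts are GC-poor (median 41.9% against 46.8% over all genes). KIF18A, a kinesin that aligns chromosomes, stood at 55.1, 56.6 and 56.8 CPM with rupture and 45.01, 43.8 and 38.1 CPM without. The groups did not overlap, and KIF18A passed DESeq2 (log2 fold change 0.41, adjusted p = 0.0421) and missed edgeR (adjusted p = 0.333). TOP2A, topoisomerase II alpha, and CENPE, a kinetochore motor, had values of 0.27 and 0.40 with an adjusted p of 0.449 and 0.455 in edgeR. Summed over the list, levels ran from 7834 to 8849 CPM in rupture+ and from 6923 to 8417 CPM in rupture- libraries, below the 12454 to 14179 CPM of the Mps1i, 12628 to 14283 CPM of the MN+ (cells with a micronucleus) and 16957 to 17811 CPM of the DMSO libraries, none of them synchronised, with all 22 libraries normalised together although the 3 sets of experiments were separate. The 39 replication genes had a median of -0.0345 and 0 calls in edgeR or DESeq2 (3 at an unadjusted p under 0.05).

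Values for genes of ribosomes and of respiration were more often below 0 than above it, unevenly over the experiments. Of the 82 cytosolic ribosomal protein genes 32 were lower in all 3 experiments and 0 higher, beside 15.9% and 19.2% of all genes, and 0 passed edgeR (23 at an unadjusted p under 0.05). RPL28 and RPS26 were lower in DESeq2, with log2 fold changes of -0.55 and -0.39 (adjusted p = 0.0148 and 0.0421). The list's median was -0.16 in the test over all libraries but -0.41, -0.12 and 0.0507 in experiments 1, 2 and 3, so the sign turned in the third, and -0.15 with the GC offsets. The 77 nuclear genes of the respiratory chain had medians of -0.32, -0.0498 and 0.0122. None of the 13 measured respiratory chain genes of the mitochondrial genome passed edgeR (9 at an unadjusted p under 0.05), all 13 had values below 0 and 11 were lower in all 3 experiments, with medians of -0.14, -0.47 and -0.21. MT-CO3, a subunit of cytochrome c oxidase, was at 889, 820 and 1122 CPM with rupture and 1082, 1093 and 1349 CPM without. The groups overlapped, and each rupture+ library was below the rupture- library of its experiment. The log2 fold change of MT-CO3 was -0.32 (edgeR adjusted p = 0.316, DESeq2 0.0419), and it was the 1 gene of this list that DESeq2 called.

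Other lists held 1 or 2 genes past DESeq2's threshold and none past edgeR's, where DESeq2 called 0.518% of all genes higher. Among 20 secreted factors DESeq2 called CXCL8 and SERPINB2, a serine protease inhibitor, which stood at 180, 353 and 347 CPM with rupture and 144.6, 268 and 239 CPM without. SERPINB2 was higher in each experiment, with a log2 fold change of 0.42 (edgeR adjusted p = 0.158, DESeq2 0.00328). SKIL, a feedback repressor of TGF-beta signalling, was the 1 gene called by DESeq2 of 24 on that pathway's list, with a value of 0.58 (edgeR adjusted p = 0.316, DESeq2 0.0115). DNAJB4, an HSP40 co-chaperone, was the 1 of 18 heat shock genes, at 0.45 (DESeq2 adjusted p = 0.0362). Of 6 measured replication-dependent histone genes H2AC6 had a value of 0.74 (DESeq2 adjusted p = 0.00292) and H1-4 of -0.49 (0.165), around a median of -0.17, which was 0.0188 with the GC offsets. The rupture- libraries of H2AC6 alone would not have met the count floor, so it was measured because rupture+ libraries were high. Its test is not free of that selection. The lists for ERK feedback, endoplasmic reticulum chaperones, cholesterol synthesis, glycolysis, DNA repair, YAP targets, SRF-driven actin genes, NRF2 targets and lysosomes held 0 calls in either tool, between 0 and 5 genes at an unadjusted p under 0.05 in edgeR, and medians from -0.0656 to 0.0458.

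**Figure D3:**
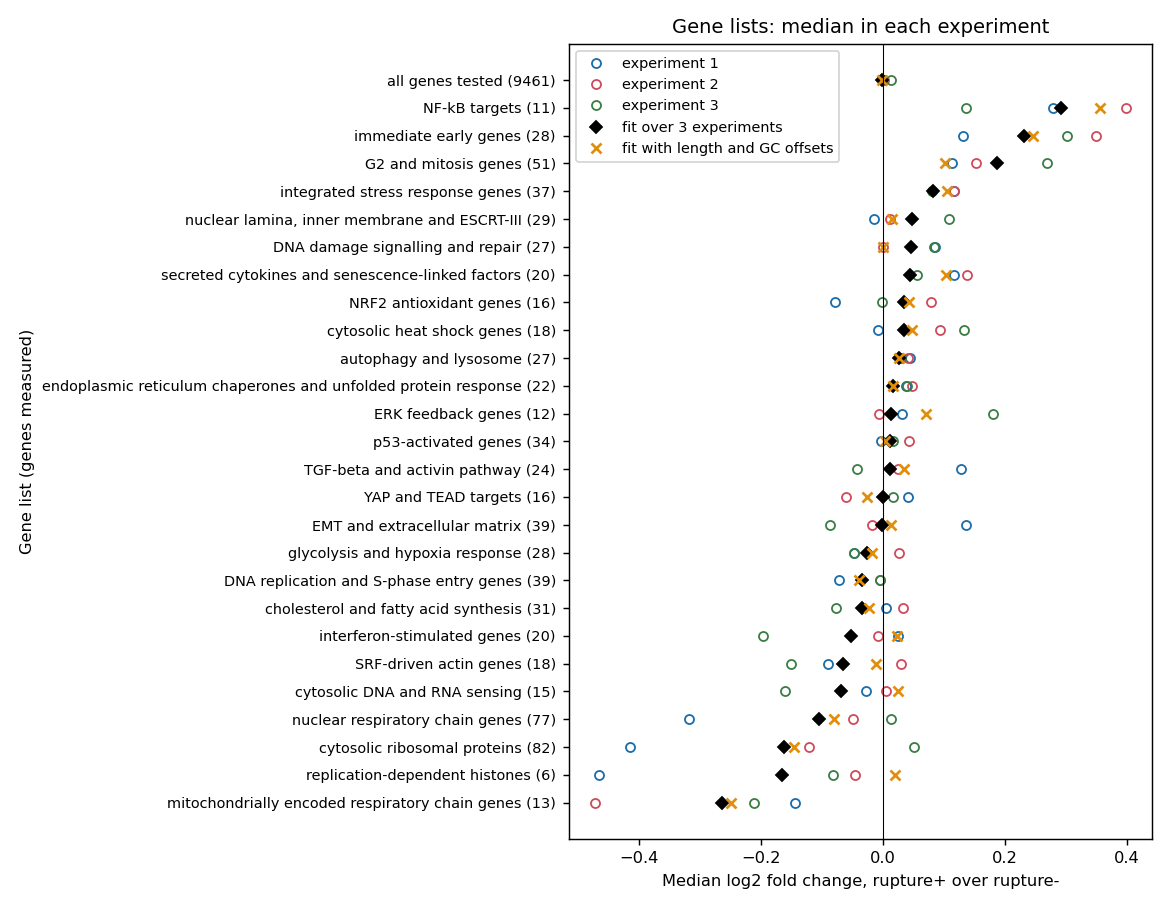
Median log2 fold change (rupture+ over rupture-) of each gene list, with circles for the 3 experiments, a diamond for the test over all of them and a cross for the test with length and GC offsets. The NF-kB and immediate early lists lie right of 0 in every experiment. So do those for G2 and mitosis, integrated stress response, secreted factors, endoplasmic reticulum chaperones, DNA repair, and autophagy and lysosome. The ribosomal protein list runs from -0.41 to 0.0507.

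In the other 16 libraries both pulses were used in both groups, so values for pulse length can be given there. Those cells were not synchronised, and whether the values hold in the rupture libraries was not tested. Between 200 and 800 ms, 0 of the 11 higher genes passed edgeR in the Mps1i and DMSO libraries, where their log2 values lay between -0.14 and 0.23. In the libraries of cells with and without micronuclei (MN+ and MN-) the count was again 0, with values between -0.35 and 0.13. Over all genes these 2 tests called 1 and 0 genes, with 210 and 105 at an unadjusted p under 0.05. With the pulse as a term in a fit over all 22 libraries, 32 genes passed for rupture (0.339% of 9431), all higher, among them 9 of the 11. EGR1 (log2 fold change 1.15, standard error 0.266, adjusted p = 0.0716 in edgeR) and FOS (0.67, standard error 0.412, adjusted p = 0.381) did not pass there. In the 6 libraries alone EGR1 had 1.11 (standard error 0.101) and FOS 0.74 (standard error 0.1098), so the standard errors were larger in the joint fit. Without the pulse term the joint fit passed 10 of the 15 genes called. The fit with the pulse takes it to act alike in synchronised and unsynchronised cells, and that was not tested. The pulse term itself had values between -0.20 (ATF3) and 0.11 (SNAI2) over the 11.

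Set beside the effect of the inhibitor itself (Mps1i over DMSO, 4 libraries each), 9 of the 11 higher genes also rose there in edgeR, as did 588 of all 9431 genes in the fit (6.23%). The 4 libraries of a group come from 2 experiments with a 200 and an 800 ms pool each, and so do those with and without micronuclei, so their p-values rest in part on the spread between pools of the same cells. Values for Mps1i and for a micronucleus are from the fit over all 22 libraries, and those for rupture from its own 6. EGR1 had log2 values of 1.11 with rupture and 1.71 (standard error 0.204) with Mps1i, and ATF3 of 1.13 and 1.62 (standard error 0.158). SNAI2 at 0.28 (adjusted p = 0.115) and FOS at 0.0501 (adjusted p = 0.938 in edgeR) did not pass with Mps1i. The test of the difference between the effects called 271 of 9431 genes (2.87%), none of the 11 among them, with SNAI2 nearest at a difference of 0.58 (adjusted p = 0.0708 in edgeR). With the pulse as a term that count was 116, and without the block 56. Of those 271, 44 were G2 and mitosis genes, a list whose 51 measured genes all fell with Mps1i (median -0.38), as did 428 of all genes (4.54%). A further 20 were p53-activated genes, of which 27 of 34 rose with Mps1i (median 0.62). With rupture 0 of the p53 list passed edgeR (3 at an unadjusted p under 0.05), DESeq2 called 1, PMAIP1 (log2 fold change 0.47), and the median was 0.0118. CDKN1A, the p53 target that encodes p21 and was chosen after its values were seen, was at 819, 811 and 566 CPM with rupture and 990, 778 and 718 CPM without. The groups overlapped. Its log2 fold changes were -0.19 with rupture (edgeR adjusted p = 0.532) and 1.06 with Mps1i. The rupture libraries differ from the others in synchronisation as well, and the part of that in these differences was not tested.

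Against the effect of a micronucleus (MN+ over MN-), 4 of the 11 passed in both, EGR1, CREB5, FILIP1L and TNFAIP3, beside 27 of all 9431 genes higher with a micronucleus (0.286%). TNFAIP3 rose by 0.85 on the log2 scale with rupture and by 0.94 (standard error 0.121) with a micronucleus. The difference between the effects passed for 3 genes (0.0318%), TSC22D1, BHLHE40 and GEM, and all 3 were larger for rupture. TSC22D1 had 0.59 with rupture and 0.0748 with a micronucleus (adjusted p of the difference = 0.00492 in edgeR), and BHLHE40 had 0.64 and 0.11 (adjusted p of the difference = 0.0323). GEM, which encodes a small GTPase and is named here after its values were seen, had 0.62 and -0.10 (adjusted p of the difference = 0.0394). With the pulse as a term the difference passed for 1 gene, and without the block for 0 (461 at an unadjusted p under 0.05). MN+ cells mix intact and ruptured micronuclei. With all 22 libraries normalised together, though the tables come from separate experiments, EGR1 ran at 61.5 to 88.04 CPM in rupture+, 31.7 to 37.9 in rupture-, 24.96 to 43.7 in MN+, 16.7 to 24.3 in MN-, 15.2 to 16.9 in Mps1i and 2.46 to 7.56 CPM in DMSO libraries. In that order rupture- overlapped with MN+ and MN- with Mps1i, and the other neighbours did not overlap.

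**Figure D4:**
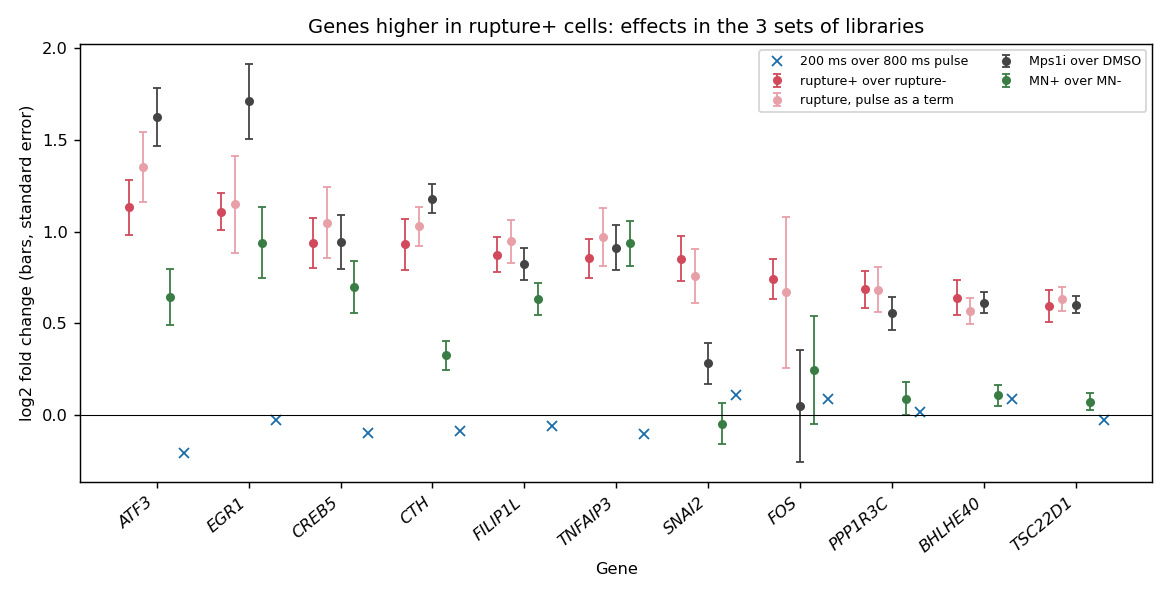
Log2 fold change with its standard error for the 11 higher genes, in the rupture comparison, in the fit with the pulse as a term, for Mps1i over DMSO and for MN+ over MN-, with crosses for 200 over 800 ms. The crosses lie between -0.20 and 0.11, and MN+ values of SNAI2, PPP1R3C, BHLHE40 and TSC22D1 lie near 0.

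Median log2 fold changes of whole chromosomes ran from -0.15 for the 499 genes of chromosome 19 to 0.0663 for the 171 genes of chromosome 13. Chromosome 19 had medians of -0.14, -0.00386 and -0.28 in experiments 1, 2 and 3. The genes of these chromosomes also differ in base composition, with a median transcript GC of 58.6% on chromosome 19 and 41.1% on chromosome 13. With the length and GC offsets all chromosome medians lay between -0.0358 (chromosome 12) and 0.0231 (chromosome 10). No test was run on chromosomes.

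**Figure D5:**
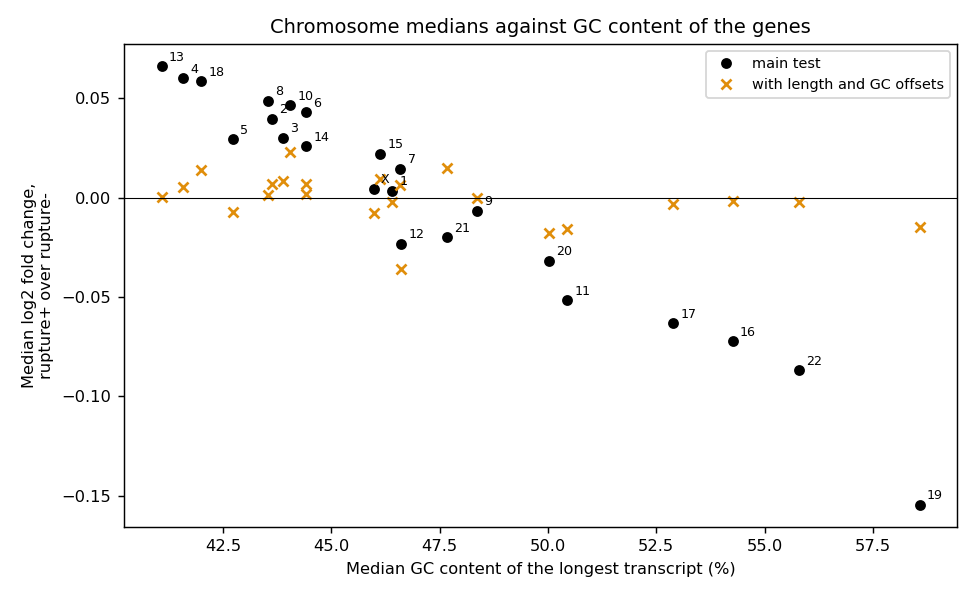
Median log2 fold change of the genes of each chromosome (rupture+ over rupture-) against the median GC content of their longest transcripts in percent, from the main test (dots, numbered by chromosome) and with length and GC offsets (crosses). Dots fall from 0.0663 for chromosome 13 to -0.15 for chromosome 19, and crosses stay between -0.0358 and 0.0231.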

How the data were processed

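RNA from sorted pools of RPE1 cells was amplified (SMART-Seq v4), sequenced and quantified by the authors. They deposited Salmon estimated counts per gene, rounded to whole numbers, in 3 tables whose annotation is on GRCh38. Versions in the processing notes of the submitters are 1.2 for Salmon and 2.20 for bcl2fastq. A strand-specific count is not given in the sources used here, so overlapping antisense genes cannot be told apart. Salmon divides reads between near-identical genes, so values of such copies are uncertain. No p-values or fold changes of the authors were used.

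Estimated counts of 6 libraries (63268807 to 79829442 in total, 9461 genes) entered edgeR 4.0.16 (R 4.3.3, limma 3.58.1) with TMM normalization, a quasi-likelihood test with the experiment as a block, Benjamini-Hochberg adjustment over all genes and a threshold of 0.05. Each gene had 700 or more counts in 2 libraries, so no further filter was set. Library totals are counts of amplified cDNA without molecular identifiers. The pairing comes from the design, since both groups of an experiment were sorted from 1 well. The deviations of paired libraries from their group means correlated at 0.00951, 0.229 and 0.0381 across genes. Differences between effects and the pulse term came from a joint edgeR fit over 22 libraries and 9431 genes. CPM are after TMM, log2 ratios within an experiment use a prior count of 2, and standard errors are the log2 fold change divided by the root of F. DESeq2 1.42.0, limma-voom, other scalings, filters, length and GC offsets (splines with 4 degrees of freedom) and left-out libraries were alternatives. On simulated data for this comparison (9461 genes), edgeR with the block found 84 of 100 genes changed 1.5-fold and 100 of 100 changed 2-fold. Of its calls there, 7.54% were false. Whether these rates hold for the measured libraries, which differ in their dependence on GC content, was not tested. Positions and symbols are from GENCODE, promoter windows from RefSeq, read with Python 3.11.15. Of the identifiers, 224 (2.37%) lie outside the primary annotation.

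Genes named are the up to 12 per direction with the largest change among those past the threshold in 3 pairs of like sign, up to 5 per direction with the smallest adjusted p, genes named in the study, and up to 4 per list with the smallest p. Others are marked as chosen later. The comparison, gene lists and tests were chosen with earlier results of these data known.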

Additional observations from a re-analysis of the deposited data

How the results depend on the processing

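The number of genes called was 15 (11 higher, 4 lower). Without the replicate block edgeR called 3 higher and 0 lower (847 at an unadjusted p under 0.05). DESeq2 called 72 with the block (49 higher, 23 lower) and 48 without it (38 and 10). Length and GC offsets gave 49 calls, 43 of them higher, a mean count of at least 2000 left 6 higher, and leaving out identifiers outside the annotation left 1 lower. Leaving out 1 experiment or 1 library gave between 0 and 77 calls, between 0 and 39 higher and between 0 and 38 lower. The lowest and highest counts came without rupture+ or rupture- library 2 or 3 (unblocked) and without experiment 1. The joint fit with the pulse called 32, all higher and 0 lower, and without the pulse, an alternative chosen after seeing the data, 198 (175 higher, 23 lower). The count for rupture against the Mps1i effect was 271, or 116 with the pulse as a term and 56 without the replicate block. For rupture against the MN effect it was 3, or 1 and 0. Limma-voom, DESeq2 size factors, library totals and filterByExpr gave 15 or 16 calls, 14 or 15 of them shared with the 15. Of the 300 refits of the called genes, 178 stayed past the threshold and 122 did not, and 0 changed sign. Among other named genes 4 refits changed sign, each with a value close to 0: BTG2 (0.00662 with the pulse as a term), SDF2L1 (0.0452 with GC offsets) and H1-2 (0.0159 without experiment 1 and 0.0285 without its rupture- library, against -0.45 as the lowest value with 1 library left out). The causes were not tested. GC-offset medians and the sum of NOMO1 and NOMO2 were also chosen after seeing the data. The design holds 3 pairs and 1 pulse per group, so a small change can be missed and pulse and rupture cannot be told apart.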

Other observations

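A further group of genes, chosen after their values were seen, missed edgeR's threshold and passed under DESeq2, with the GC offsets and with the pulse as a term. ARID5B, a DNA-binding cofactor, lay at 111, 109 and 137 CPM with rupture and 81.98, 76.7 and 77.8 CPM without, and its groups did not overlap. Its log2 fold change was 0.59 (adjusted p = 0.0801 in edgeR, 6.63e-05 in DESeq2, 0.0146 with the GC offsets and 0.00366 with the pulse as a term). CCNL1, a cyclin linked to splicing, was at 84.99, 90.2 and 97.2 CPM with rupture and 63.5, 62.9 and 57.9 CPM without (log2 fold change 0.56, edgeR adjusted p = 0.0801). SAT1, the enzyme that acetylates spermidine and spermine, had a value of 0.49, the transcription factor gene ETS2 of 0.52 and RCAN1, which encodes an inhibitor of calcineurin, of 0.44. In each of these genes all 3 rupture+ libraries were above the rupture- library of their experiment, as for 19.2% of all genes. The genes were picked because they passed as higher, so this adds no separate support.

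Among the genes that DESeq2 called lower were the metallothioneins MT2A and MT1E, which bind zinc and other metals. MT2A was at 1283, 1356 and 1584 CPM with rupture and 2219, 1637 and 2053 CPM without, without overlap, and its log2 fold change was -0.48 (adjusted p = 0.187 in edgeR and 0.00341 in DESeq2). MT1E had a value of -0.41 (edgeR adjusted p = 0.359). Metallothionein genes are close copies of each other, so their counts are uncertain. SEMA7A, a membrane-bound semaphorin, had a value of -0.52 (adjusted p = 0.0826 in edgeR, 2.54e-04 in DESeq2).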
